A study of Homo sapiens with 20 samples.

Results

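The 8 genes described here carry names that tie them to p53: TP53I3, TP53I11 and TP53I13 (p53-inducible proteins), TP53INP1 and TP53INP2 (p53-inducible nuclear proteins), TP53AIP1 (p53-regulated apoptosis-inducing protein 1), the lncRNA TP53TG1 (p53 target gene 1) and PERP (p53 apoptosis effector). They were taken by their GENCODE gene names and not by their measured values, and all 8 were among the 27697 genes tested, of which 17351 were mRNAs and 10346 lncRNAs. RNA was sequenced from NGP cells, an established human neuroblastoma line, after 8 µM racemic nutlin-3 (nutlin, 10 samples) or after ethanol alone (vehicle, 10 samples). The genotype beyond the name of the line and the duration of treatment are not given in the sources used here. All 20 samples come from a single cell line, so they do not show how other lines respond. Nothing in the sample labels says that replicates were separate cultures, although the study's methods call them biological replicates. The p-values measure the spread between these samples.

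Nutlin-3 occupies the pocket of MDM2 that binds p53, and p53 that is freed from MDM2 accumulates and activates transcription of its target genes. The products of those targets halt the cell cycle, repair DNA, start apoptosis, change metabolism or, as MDM2 does, turn p53 off again. The 8 genes belong to several of these branches: TP53I3 encodes a quinone oxidoreductase, TP53INP1 and TP53INP2 are paralogues that take part in autophagy, TP53AIP1 acts at mitochondria, and PERP is a tetraspan membrane protein that also belongs to desmosomes, the junctions of epithelial cells.

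Per sample, between 14455477 and 19532971 read pairs were assigned to transcripts. The values below are TMM-normalised CPM, which scale counts to library size, or TPM, which also correct for transcript length, where genes or transcripts are compared with each other. The log2 fold change (LFC, nutlin against vehicle) with its standard error (SE) and the adjusted p value come from the edgeR quasi-likelihood (QL) test over all genes, and a gene is called significantly differentially expressed (SDE) at 5% FDR. The 9 neuroblastoma markers reported, among them HAND2, GATA3 and MYCN, were at 48.3 TPM or more in every sample, with the lowest value in DBH. The 11 markers of immune, epithelial, fibroblast, endothelial and liver cells summed to between 2.61 and 4.81 TPM in vehicle and to between 9.10 and 13.6 TPM in nutlin, with CD3E listed at 0 in every sample. The rise of that sum lay mostly in COL1A1, a collagen gene, which ran from 1.80 to 3.06 TPM in vehicle and from 6.16 to 9.60 TPM in nutlin. The epithelial markers EPCAM, from 0.387 to 1.21 TPM on average (LFC 1.70, edgeR QL adjusted p 4.35e-07), and KRT14, from 0.0648 to 0.317 TPM (LFC 2.06, edgeR QL adjusted p 0.00203), rose as well. So did the endothelial marker PECAM1, from 0.214 to 0.458 TPM (LFC 1.54, edgeR QL adjusted p 4.67e-06). The liver marker ALB, at 0 in vehicle and a mean of 0.665 TPM in nutlin, was not tested. PTPRC, KRT5, COL3A1 and CDH5 were not SDE. The part of other cells in the results was not tested. In bulk RNA, fewer cells that express a gene and less of its RNA per cell cannot be told apart.

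Nutlin replicates 4 and 6 stood apart from the other 8 nutlin samples. On the first principal component of the nutlin samples (22.2% of their variance over the 15168 genes whose mean reached 1 CPM) they scored 20.1 and 15.7, whereas the others scored between -8.12 and 1.11. These 2 samples had the lowest 2 nutlin values for 3 of the 8 genes, namely TP53I3, TP53I11 and TP53INP1, and the highest 2 for TP53AIP1. Among 30 other p53 targets they were the lowest 2 for 13 genes (43.3%), against 7.81% of the 15168 genes. Results that rest on them are therefore also given without them, an alternative that was added after the data were seen.

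Of the 8 genes, 5 rose after nutlin (TP53INP1, TP53TG1, TP53I3, TP53I11 and TP53INP2), none fell, and TP53I13, TP53AIP1 and PERP were not SDE. Nutlin changed much of the transcriptome, and 32.3% of all genes tested rose and 26.5% fell. For TP53INP1, TP53TG1 and TP53I3 every nutlin sample lay above every vehicle sample, which was so for 12.2% of all genes tested. Since the 8 genes differ widely in size of response, from a 16.3-fold rise to none detected, they are described one by one, from enzyme and membrane proteins to the paralogous autophagy factors, the apoptosis factors and the lncRNA. The plot of the 8 genes by sample shows these values.

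**Figure D1:**
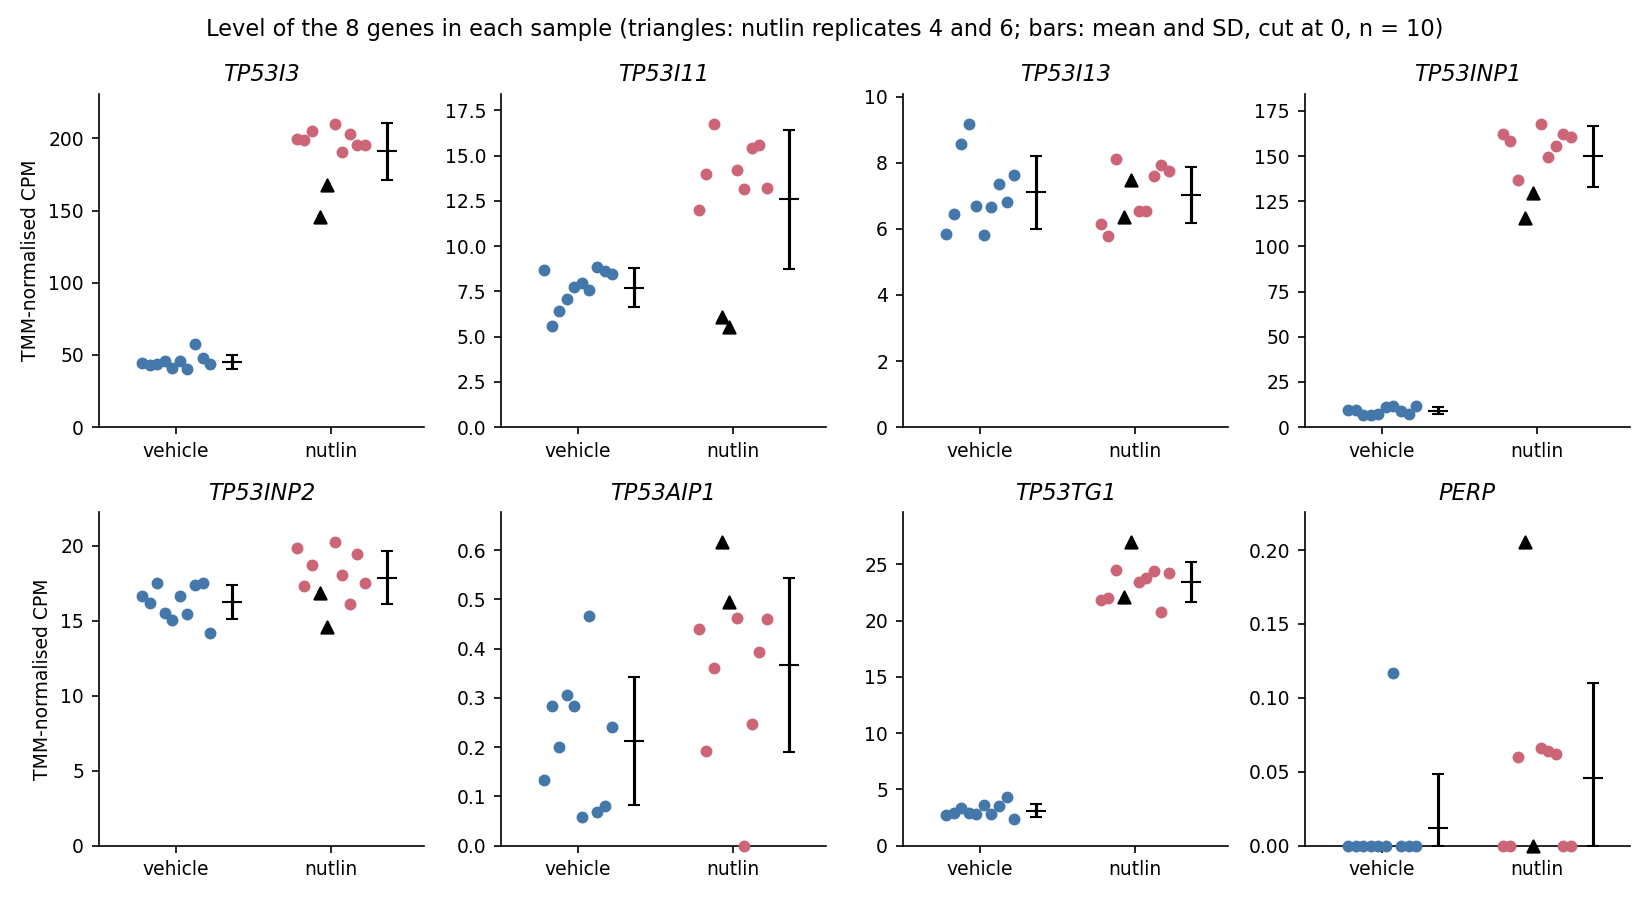
TMM-normalised CPM (linear axes from 0) of the 8 genes in the 10 vehicle and 10 nutlin samples, with the mean and SD beside each group and nutlin replicates 4 and 6 as black triangles. The groups are separate for TP53I3, TP53INP1 and TP53TG1, replicates 4 and 6 lie with the vehicle samples for TP53I11, and PERP is near 0 throughout.

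TP53I3, a quinone oxidoreductase linked to oxidative stress in apoptosis, lies at chr2:24077433-24085861 on the minus strand (GRCh38). It ran from 40.3 to 57.3 CPM in vehicle (median 44.3) and from 145 to 210 CPM in nutlin (median 197). Both groups were far apart, and the lowest nutlin samples were replicates 4 (145 CPM) and 6 (168 CPM), with the other 8 at 191 CPM or more. The rise was 4.22-fold (LFC 2.08, SE 0.06, edgeR QL adjusted p 1.21e-22), and the LFC was 2.15 without replicates 4 and 6. Per length, TP53I3 had the highest level of the 8 genes in both groups, with a mean of 42.4 TPM in vehicle and 162 TPM in nutlin.

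TP53I3 is known for a pentanucleotide microsatellite that p53 binds. The reference genome holds it as 15 units in a row at chr2:24084343-24084417, of which 6 read TGTCC and 9 read TGCCC on the strand of the gene. TP53I11 was found to hold a run of the same kind, of 9 units (1 TGTCC and 8 TGCCC), at chr11:44950782-44950826. The first 30 bases of each run are shown, because 2 of the 8 genes hold one. Capitals mark the TGTCC units, and both read 5′ to 3′ on the minus strand, the strand of each gene. The sequences are those of the hg38 reference, and the length of the runs in NGP cells was not measured.
TP53I3: tgcccTGTCCTGTCCtgccctgcccTGTCC
TP53I11: tgccctgccctgcccTGTCCtgccctgccc

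Runs of at least 9 such units, on either strand and within 2000 bases of the gene start, were present at 4 of the 27697 genes tested (0.0144%), and a run of 15 at TP53I3 alone. The limit of 9 units was set after the runs had been seen. The other 2 genes were UNKL, with 9 units, which fell (LFC -0.81, edgeR QL adjusted p 1.61e-11), and the lncRNA ENSG00000225000, with 10 units, which was not SDE (LFC 0.52, edgeR QL adjusted p 0.41). Such a run was thus found beside genes that rose, fell or were not SDE. A complete p53 site, meaning both half-sites with at most 13 bases between them and no mismatch, was found in the same windows at 157 genes (0.567%) and at none of the 8. In the RefSeq promoter windows, from 250 bases before to 50 after the start (GRCh38), a p53 half-site lay at 2202 of 27305 genes (8.06%) and at none of the 7 members listed there. No match says only that these letters are not in these windows.

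The run of TP53I3 begins 1444 bases after the annotated gene start, inside the gene. It lies in an exon that belongs to the 5′ UTR of TP53I3-201 and in an exon of TP53I3-205, in an intron of TP53I3-202, and 32 bases before the first base of TP53I3-204, as the map of TP53I3 shows. These 4 transcripts rose, 4 of the 6 annotated ones. The most abundant, TP53I3-202, went from a mean of 19.2 TPM (15.3 to 22.5) to 78.8 TPM (62.8 to 94.6), an LFC of 2.05 (SE 0.08). TP53I3-201, which encodes the same 332 amino acids, went from 4.67 TPM (2.90 to 7.09) to 26.5 TPM (19.2 to 34.3), an LFC of 2.52 (SE 0.13). TP53I3-205, a model with no defined coding sequence, went from 4.50 to 17.8 TPM on average. The truncated model TP53I3-204 had the smallest LFC of the 4, 1.43 (SE 0.16), and its share of the gene's TPM went from 27.5% to 19.3%. Whether these LFCs differ from each other was not tested.

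**Figure D2:**
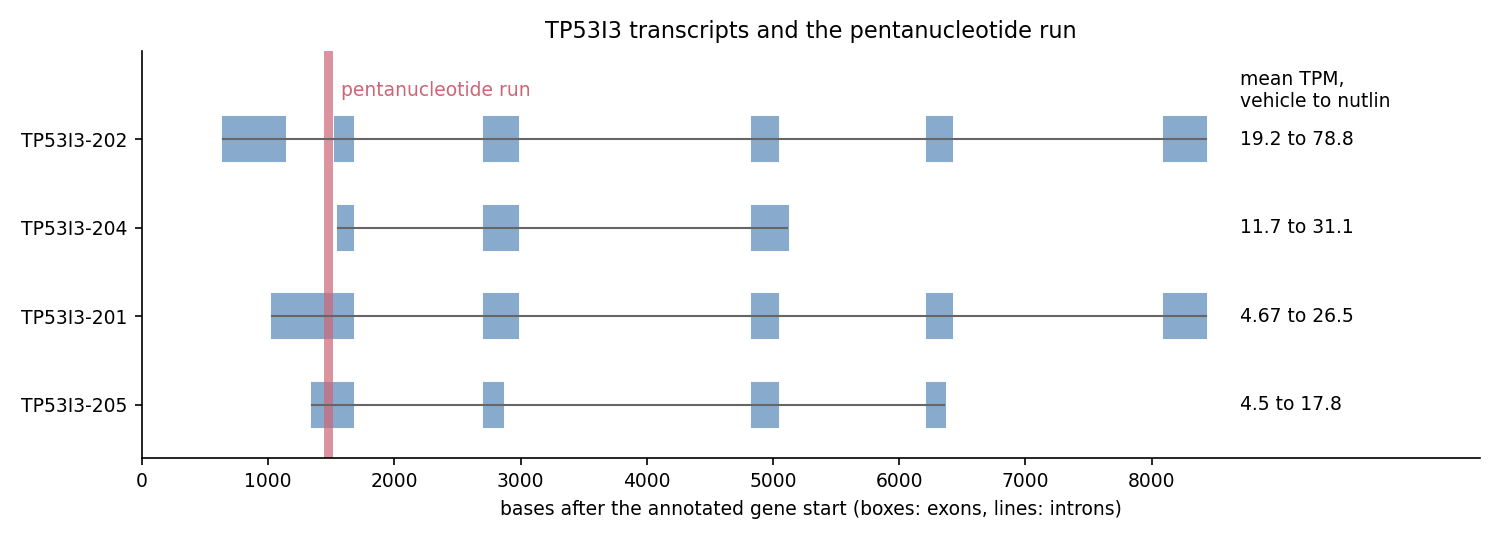
Exons (boxes) and introns (lines) of the 4 TP53I3 transcripts that rose, in bases after the annotated gene start, with the pentanucleotide run as a red band and the mean TPM of each transcript in vehicle and nutlin (n = 10 each) at the right. The band lies in an intron of TP53I3-202, ahead of TP53I3-204 and in an exon of TP53I3-201 and TP53I3-205.

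TP53I11, a transmembrane protein first described as p53-inducible, lies at chr11:44885903-44951306 on the minus strand. It ran from 5.61 to 8.88 CPM in vehicle (median 7.85) and from 5.55 to 16.8 CPM in nutlin (median 13.6). In 8 nutlin samples it was at 11.97 CPM or more, above every vehicle sample, whereas replicate 4 had 6.09 CPM and replicate 6 had 5.55 CPM, inside and below the vehicle range. The rise was 1.64-fold (LFC 0.71, SE 0.15, edgeR QL adjusted p 0.000127), and the LFC was 0.90 without those 2 samples. TSPAN18, which overlaps TP53I11 on the opposite strand and shares 76 of its exon bases, also rose (LFC 0.57, SE 0.06), but was at 30.1 and 31.1 CPM in replicates 4 and 6, near the top of its nutlin range of 22.8 to 31.1 CPM. The nutlin samples in which TP53I11 was low were thus not low for its antisense neighbour.

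The run of TP53I11 lies 480 bases after the gene start, in exons of 9 of its 23 transcripts, among them the UTR of TP53I11-208, and in introns of 4. It lies before the start of the other 10. The estimates of single transcripts were low. With all 20 samples in edgeR QL, only TP53I11-202, a nonsense-mediated decay model with a mean of 0.0519 TPM in nutlin, was SDE among them (LFC 2.66, SE 0.71, edgeR QL adjusted p 0.00748). Which TP53I11 transcripts were called depended on the setting, and in the 16 samples with the replicate block TP53I11-202 was not called (edgeR QL adjusted p 0.17) while TP53I11-218 was (edgeR QL adjusted p 0.0416). The most abundant, TP53I11-203, had 1.27 TPM in vehicle and 1.85 TPM in nutlin (edgeR QL adjusted p 0.197). TP53I11-208 (0.613 to 1.14 TPM on average) was not SDE either, so the rise of the gene could not be assigned to a transcript at this depth.

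TP53I13, at chr17:29566052-29573157 on the plus strand, encodes a membrane protein. It ran from 5.82 to 9.18 CPM in vehicle (median 6.75) and from 5.79 to 8.11 CPM in nutlin (median 7.01). The groups overlapped over nearly their whole ranges and no change was detected (LFC -0.02, SE 0.09, edgeR QL adjusted p 0.895). The sign of this LFC turned under 8 of 10 alternative settings, with values up to 0.15. None of its 10 transcripts tested was SDE, including TP53I13-201, at 3.95 TPM in vehicle and 3.54 TPM in nutlin. ABHD15, which overlaps it on the opposite strand and shares 431 of its exon bases (9.43%), rose from a median of 0.686 CPM to 1.17 CPM (LFC 0.74, SE 0.21).

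TP53INP1 and TP53INP2 both carry a motif that binds the LC3 family of autophagosome proteins, and TP53INP1 is also known to sit in a complex with the kinases HIPK2 and PRKCD that modify p53. TP53INP1 (chr8:94925972-94949378, minus strand) had the largest rise of the 8 genes. It ran from 6.51 to 11.97 CPM in vehicle (median 9.24) and from 116 to 168 CPM in nutlin (median 157). The lowest nutlin sample, replicate 4, was far above the highest vehicle sample. The rise was 16.3-fold (LFC 4.03, SE 0.09, edgeR QL adjusted p 2.53e-25) and placed TP53INP1 at rank 132 by LFC among the 15168 genes whose mean reached 1 CPM.

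TP53INP2 (chr20:34704339-34713439, plus strand) ran from 14.2 to 17.6 CPM in vehicle (median 16.4) and from 14.6 to 20.2 CPM in nutlin (median 17.8). The groups overlapped, with 5 nutlin samples above the highest vehicle sample and replicate 6 the lowest of the nutlin samples. The rise was 1.102-fold (LFC 0.14, SE 0.06, edgeR QL adjusted p 0.0389), and it was no longer SDE under 4 of 10 alternatives. Without replicates 4 and 6 the LFC was 0.20 with an adjusted p of 0.00293.

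Since TP53INP1 and TP53INP2 were measured in the same samples, their difference was tested directly as the log2 ratio of TP53INP1 to TP53INP2 in TPM with a pseudocount of 1. The ratio was -0.97 ± 0.23 (SD, n = 10) in vehicle, where TP53INP2 was the higher of the pair in every sample (range -1.33 to -0.56). It was 2.33 ± 0.16 (SD, n = 10) in nutlin, where TP53INP1 was the higher in every sample (range 1.97 to 2.51). The difference of 3.30 on the log2 scale was larger than the spread between replicates (two-sided permutation test, p = 6e-05). The order of the paralogues was therefore opposite in the 2 conditions, with means of 1.75 TPM for TP53INP1 and 4.34 TPM for TP53INP2 in vehicle against 28.2 TPM and 4.79 TPM in nutlin.

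Both transcripts of TP53INP1 rose. TP53INP1-202, which encodes 164 amino acids, went from a mean of 0.956 TPM to 22.8 TPM (LFC 4.61, SE 0.47, edgeR QL adjusted p 6.85e-08). TP53INP1-201, which encodes 240 amino acids, went from 0.791 TPM to 5.37 TPM (LFC 2.77, SE 0.42, edgeR QL adjusted p 1.82e-05). By kallisto's estimate TP53INP1-202 held between 73.3% and 85.9% of the gene's TPM in nutlin (mean 80.8%), the larger share in all 10 samples. In vehicle the share of TP53INP1-202 ran from 0 to 100% (mean 52.4%), so a change in share could not be judged at this depth. The models are 5631 and 5638 bases long, within 5643 exon bases of the gene. They thus share nearly all of their sequence, so their levels and LFCs rest on reads divided by estimation.

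Of the TP53INP2 transcripts, TP53INP2-202 went from a mean of 1.002 TPM (0.363 to 1.83) to 2.60 TPM (1.05 to 4.39) and was SDE (LFC 1.38, SE 0.31, edgeR QL adjusted p 0.00175). TP53INP2-201 had a mean of 3.33 TPM in vehicle and 2.05 TPM in nutlin and was not SDE (LFC -0.67, SE 0.35, edgeR QL adjusted p 0.195). Both encode the same 220 amino acids and share most of their sequence, so that kallisto divided their reads by estimation. The share of TP53INP2-202 was 23.2% ± 13.5 (SD, n = 10) in vehicle and 54.1% ± 23.6 (SD, n = 10) in nutlin, with ranges of 8.06% to 46.8% and 29.9% to 98.0% that overlapped. The difference in share was not tested. In the 16 samples with shared replicate numbers, TP53INP2-202 had an LFC of 1.003 (edgeR QL adjusted p 0.0227) without and 1.04 (edgeR QL adjusted p 0.0756) with the number as a block, so that the block ended its call.

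**Figure D3:**
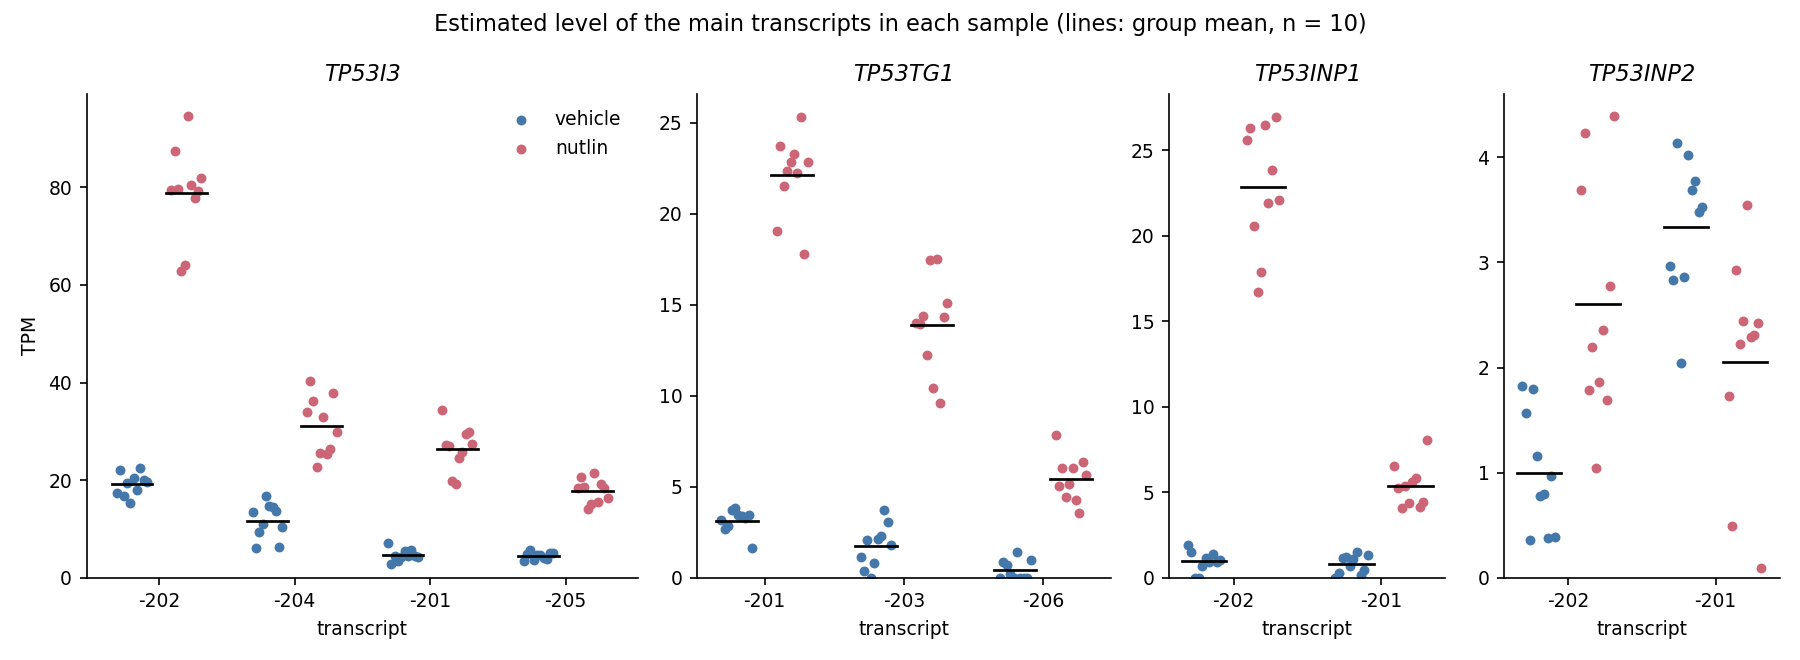
TPM (linear axes from 0) of the most abundant transcripts of TP53I3, TP53TG1, TP53INP1 and TP53INP2 in the 10 vehicle and 10 nutlin samples, with group means as lines. For TP53I3, TP53TG1 and TP53INP1 the nutlin samples lie above the vehicle samples for each transcript, whereas TP53INP2-202 and TP53INP2-201 overlap between the conditions.

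TP53AIP1, at chr11:128934731-128943399 on the minus strand, encodes a mitochondrial protein that promotes apoptosis and interacts with BCL2. It was close to the detection limit, between 0.0577 and 0.467 CPM in vehicle (median 0.22) and between 0 and 0.616 CPM in nutlin (median 0.416). The groups overlapped and the gene was not SDE (LFC 0.74, SE 0.38, edgeR QL adjusted p 0.0998). In all, 34 counts in vehicle stood against 57 in nutlin, a ratio per library size of 1.63 with an exact 95% interval from 1.05 to 2.58 that covers counting error only. The 2 highest nutlin samples were replicates 4 and 6, and without them the LFC was 0.56.

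PERP, at chr6:138088505-138107419 on the minus strand, was hardly detected. In vehicle 9 samples had no count and replicate 9 had 2. In nutlin 5 samples had at least 1 count, with 3 in replicate 4 and 7 in all. The ratio per library size was 3.41 with an exact 95% interval (counting error only) from 0.65 to 33.7, and PERP was not SDE (edgeR QL adjusted p 0.167). A change was therefore not detectable at this depth, in either direction.

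TP53TG1, a lncRNA of which YBX1 is a known binding partner, lies at chr7:87322943-87345560 on the minus strand. It ran from 2.35 to 4.31 CPM in vehicle (median 2.89) and from 20.8 to 27.0 CPM in nutlin (median 23.6). The groups were separate, and unlike for TP53I3 and TP53INP1 the nutlin replicates 4 (22.1 CPM) and 6 (27.0 CPM) were not the lowest. The rise was 7.54-fold (LFC 2.92, SE 0.08, edgeR QL adjusted p 8.26e-24), and the LFC was 2.91 without those samples. Of its 6 transcripts tested, TP53TG1-201 (3.15 to 22.1 TPM on average), TP53TG1-203 (1.74 to 13.9 TPM) and TP53TG1-206 (0.421 to 5.44 TPM) rose. Per length TP53TG1 was second to TP53I3 in nutlin, with 41.1 to 47.7 TPM.

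The start of TP53TG1 faces that of CROT, a peroxisomal carnitine acyltransferase gene on the plus strand, across 103 bases. CROT also rose. It ran from 4.43 to 6.36 CPM in vehicle (median 5.22) and from 12.5 to 17.5 CPM in nutlin (median 16.1), again without overlap (LFC 1.55, SE 0.08, edgeR QL adjusted p 7.46e-17). The stretch between both starts, chr7:87345561-87345663 (hg38, plus strand), is shown because any promoter element within it would lie ahead of both genes. It is 68.0% G and C with 11 CpG dinucleotides. Capitals mark 1 CCAAT box and 2 GGGCGG boxes, each searched on both strands.
TP53TG1 to CROT: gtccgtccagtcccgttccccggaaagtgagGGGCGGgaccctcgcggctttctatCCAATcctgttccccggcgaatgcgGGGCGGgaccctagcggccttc

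In the RefSeq promoter table (GRCh38), the 103 bases before the start held a CCAAT box at 18.5% of 35116 starts, a GGGCGG box at 31.7% and both at 5.86%. These matches describe the letters only. On the other side of TP53TG1, 102355 bases away, TMEM243 had an LFC of 0.11 (SE 0.05, edgeR QL adjusted p 0.0397).

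In vehicle the 8 genes were ordered per length as TP53I3 (38.97 to 46.1 TPM), TP53TG1 (3.97 to 8.79), TP53I13 (4.65 to 7.73), TP53INP2 (3.84 to 4.80), TP53I11 (3.12 to 4.71), TP53INP1 (1.18 to 2.40), TP53AIP1 (0.0298 to 0.305) and PERP (0 to 0.0319). The ranges of TP53TG1, TP53I13, TP53INP2 and TP53I11 overlapped each other. In nutlin TP53I3 (122 to 185 TPM), TP53TG1 (41.1 to 47.7) and TP53INP1 (22.03 to 32.1) formed 3 separate levels. Below them the ranges of TP53I11 (2.82 to 11.1), TP53I13 (5.69 to 8.81) and TP53INP2 (3.49 to 5.59) overlapped in part. TP53INP1 thus moved from sixth place to the third.

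**Figure D4:**
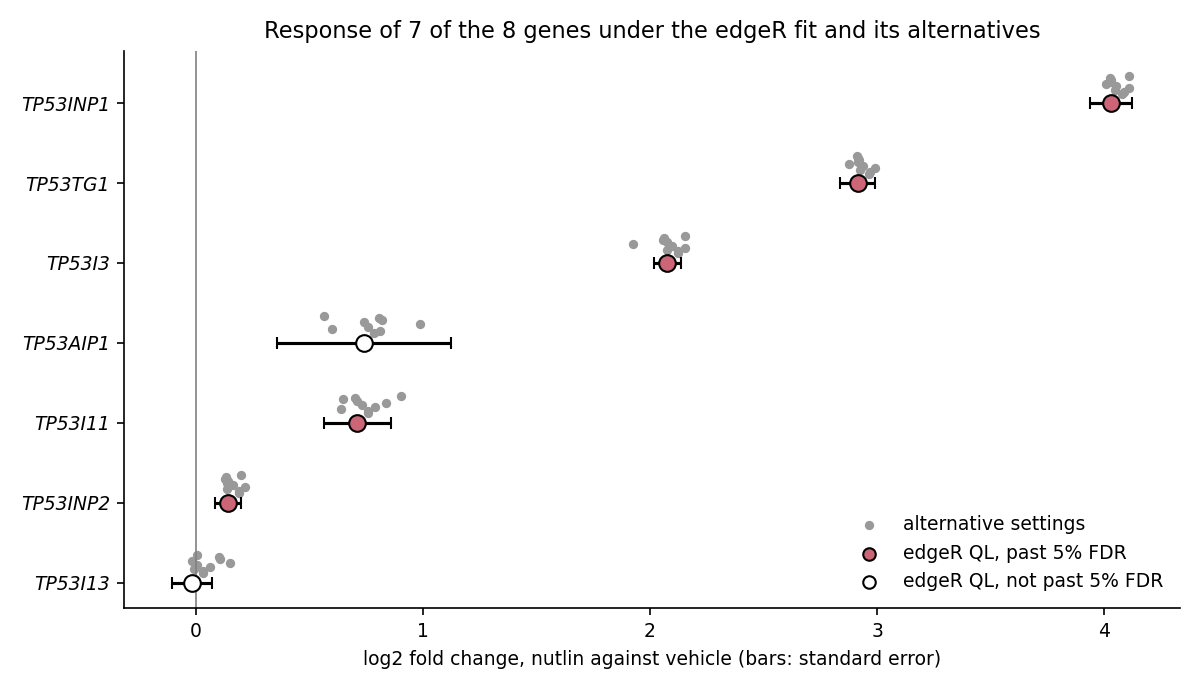
LFC (nutlin against vehicle, with SE) of 7 of the 8 genes from edgeR QL (filled, SDE at 5% FDR; open, not SDE), and in grey the LFC under each alternative setting. PERP is left out because 2 counts in vehicle give no stable LFC. TP53INP1, TP53TG1, TP53I3, TP53I11, TP53INP2 and TP53AIP1 stay above 0 in every setting shown, whereas TP53I13 lies on both sides of 0.

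At the transcript level, 51 of the 61 transcripts of the 8 genes could be tested, and 12 rose and none fell. Over all 128634 transcripts tested, 12.2% rose and 10.4% fell. Besides those described, TP53AIP1-203 was SDE (LFC 2.99, SE 0.99, edgeR QL adjusted p 0.0319) at a mean of only 0.0815 TPM in nutlin. It was not called, or too low to be tested, under 5 of 7 alternatives. TP53AIP1-201, TP53AIP1-202 and TP53AIP1-205 were below 0.12 TPM on average in both conditions and not SDE.

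The neighbours of the other genes moved in both directions. FAM228B, on the opposite strand and sharing 80 exon bases with TP53I3 (3.46% of them), rose (LFC 0.88, SE 0.07), whereas SF3B6, a splicing factor gene 1059 bases away, fell (LFC -0.83, SE 0.06). NDUFAF6, which shares 225 exon bases with TP53INP1 on the opposite strand, rose (LFC 0.64, SE 0.04), and CCNE2, a cyclin gene 29293 bases away, fell (LFC -1.54, SE 0.11). NCOA6, whose span overlaps TP53INP2 on the opposite strand without shared exon bases, fell (LFC -0.41, SE 0.03), as did PIGU (LFC -0.50, SE 0.05). Farther from TP53I11, at 265544 bases, the tetraspanin gene CD82 rose from a median of 0.156 to 0.661 CPM (LFC 1.78, SE 0.38). Next to TP53AIP1, ARHGAP32 rose (LFC 0.45, SE 0.05), and next to PERP, ARFGEF3 rose (LFC 1.66, SE 0.12). Of the other nearest genes, TAOK1 and GIT1 beside TP53I13 (LFC 0.21 and 0.43), PLEKHF2 beside TP53INP1 (0.44) and GGT7 beside TP53INP2 (0.50) rose, and PFN4, PRDM11, KCNJ5, TNFAIP3 and the lncRNAs ABHD15-AS1 and ENSG00000264290 were not SDE. The libraries were stranded, but the strand setting of kallisto is not given in the sources used here. Where antisense exons overlap, the reads of both genes may therefore not be told apart.

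**Figure D5:**
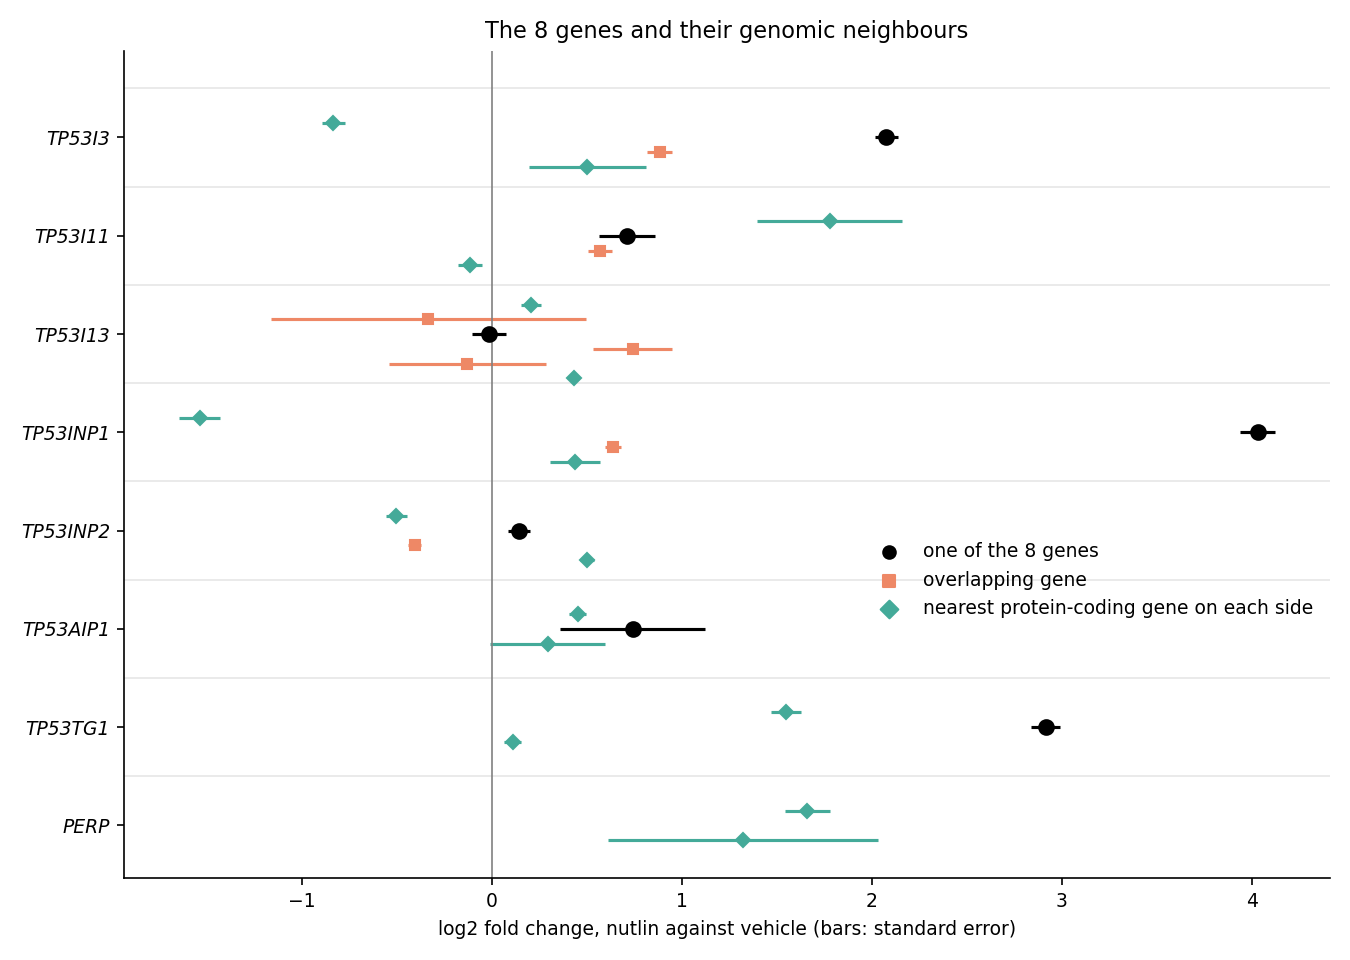
LFC (nutlin against vehicle, with SE) of the 8 genes (black), of genes that overlap them (orange squares) and of the nearest protein-coding gene on each side (green diamonds), 1 band per gene. Only CROT, beside TP53TG1, and CD82, beside TP53I11, rose by more than 1 next to a gene that rose, PERP's own LFC is left out for its low count, and SF3B6 and CCNE2 fell next to TP53I3 and TP53INP1.

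The wider p53 response gave the scale for these genes. Of 30 other p53 targets, 29 rose and 1 fell, with a median LFC of 2.99 against 0.19 over all genes tested. Over all genes tested, 32.3% rose and 26.5% fell. This list was chosen with earlier results of these data known, so its counts are not an independent result. GDF15, a secreted stress cytokine, rose most (LFC 8.61), followed by the death receptor gene FAS (5.80), the cell cycle inhibitor gene CDKN1A (5.68, from a mean of 18.5 to 955 TPM) and BBC3, a pro-apoptotic BCL2 family member (5.41). MDM2 rose from 218 to 3483 TPM on average (LFC 4.51), and the apoptosome gene APAF1 fell (LFC -0.50). TP53INP1 lay above the median of that list, TP53TG1 just below it, and TP53I3, TP53I11 and TP53INP2 further below.

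The autophagy partners of TP53INP1 and TP53INP2 moved in both directions, as did all genes tested, of which 32.3% rose and 26.5% fell. Of the 12 partner genes, 4 rose, 6 fell and 2 were not SDE. Their median LFC was -0.08, as it was over the genes whose mean reached 1 CPM. Those that rose were MAP1LC3B (LFC 1.22), GABARAPL1 (0.92) and MAP1LC3A (0.72), which encode LC3 family proteins that bind both paralogues, and the kinase gene ULK1 (0.27). ATG5, needed to couple LC3 proteins to lipid, fell (LFC -0.63), as did the LC3 family gene GABARAPL2 (-0.57). Thus members of the same LC3 family rose and fell.

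No relative of TP53I3 among 9 quinone oxidoreductase and related reductase genes rose, whereas 6 fell and 3 were not SDE (median LFC -0.25). Over all genes tested, 32.3% rose and 26.5% fell. Under the alternative settings between 4 and 6 of the 9 fell, and none rose. The largest falls were those of CRYZ (LFC -1.31), RTN4IP1 (-1.004), VAT1 (-0.42) and VAT1L (-0.30, edgeR QL adjusted p 0.0305). Among 14 relatives of PERP and desmosome genes, 5 rose, 7 fell and 2 were not SDE (median LFC -0.37). The desmosomal plakophilin gene PKP1 rose from 4 to 115 counts in all (ratio per library size 28.0, exact 95% interval 10.7 to 105, counting error only as for the next genes), and the desmoplakin gene DSP from 2 to 20 counts (ratio 9.75, interval 2.37 to 86.0). The plakophilin gene PKP3, with 4 and 17 counts (ratio 4.14, interval 1.35 to 16.9), and EMP1, a tetraspan relative of PERP that went from 0.142 to 0.612 CPM in vehicle to 1.08 to 2.88 CPM in nutlin, rose as well. JUP, the remaining gene of this list that rose, was at a higher level. It ran from 13.3 to 19.4 CPM in vehicle and from 28.2 to 35.2 CPM in nutlin (LFC 1.01). The epithelial markers EPCAM and KRT14 rose in the same samples (LFC 1.70 and 2.06) while KRT5 did not pass the test (LFC 0.52, edgeR QL adjusted p 0.652), and their part in these rises was not tested. PKP4 fell from a range of 63.7 to 73.0 CPM to one of 23.6 to 29.7 CPM (LFC -1.38), and the desmocollin gene DSC3 fell (LFC -1.39).

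Of 5 genes whose products are known partners of the 8, PRKCD, the kinase that acts with TP53INP1, rose from a range of 0.356 to 1.03 CPM to one of 4.14 to 6.08 CPM (LFC 2.92, SE 0.14). The other 4 fell: HIPK2, the other kinase of TP53INP1 (LFC -0.32), THRA, the thyroid hormone receptor gene whose product TP53INP2 coactivates (-1.32), YBX1, the partner of TP53TG1 (-0.62), and BCL2, the partner of TP53AIP1 (-0.49). Partners of the same gene, PRKCD and HIPK2, thus moved in opposite directions. Among all genes tested 32.3% rose and 26.5% fell, so moves in both directions are not particular to these partners.

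The genes with the most similar profile were found by the Euclidean distance of log2(TPM + 1) over the 20 samples, so that both level and response count. TP53I3 was nearest to REEP2 (54.6 to 192 TPM on average, distance 1.53) and CPE (38.3 to 120 TPM). TP53INP1 was nearest to STC2 (2.43 to 30.04 TPM, distance 1.58) and LINGO1. TP53TG1 was nearest to GADD45G (7.02 to 46.4 TPM, distance 1.20) and MPP2, and TP53I11 to SYCP1 (3.99 to 6.45 TPM, distance 1.21) and TUFT1. TP53INP2 was nearest to RNF169 (4.35 to 4.93 TPM, distance 0.492) and FBXL18, and TP53I13 to NPIPB11 (5.68 to 6.33 TPM, distance 0.783) and GMEB2. For TP53AIP1 (ENSG00000260672 and SLC30A2) and PERP (HCP5B and C3AR1) the distances reflect values near 0.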

How the data were processed

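RNA-seq of 20 NGP samples was re-analysed from the deposited files. The authors quantified 75-base read pairs against Ensembl release 85 transcripts (hg38) with kallisto v0.42.4, as their processing notes and methods state, and the deposited estimated counts are not normalized. The deposited TPM values are those counts scaled by effective length and library size, and the deposited effective lengths, in bases, are those the authors' kallisto runs gave. The 198968 transcripts were assigned to genes by identifier with GENCODE 44, a later annotation, and 191106 (96.0%) matched. Estimated counts were summed per gene and rounded. A protein-coding or lncRNA gene was tested if its counts summed to 1 or more in both conditions.

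SDE genes and transcripts were called with edgeR 4.0.16 (R 4.3.3) by the quasi-likelihood test on TMM-scaled counts, with no term but the condition, at 5% FDR (Benjamini-Hochberg) over all features. The paralogue ratio was compared with 100000 random permutations of the samples (scipy 1.17.1). Intervals of count ratios are exact conditional binomial intervals and cover counting error only. Alternatives were DESeq2 size factors, DESeq2 1.42.0, limma 3.58.1 voom, filterByExpr with a minimum count of 10, no filter, an offset for effective length, 1% FDR, a pseudocount of 0.5, and the replicate number as a block. The permutation tests were two-sided.

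The genes and gene lists were chosen with earlier results of these data known. Beside the 8 genes, the text names the 4 SDE genes with the largest absolute LFC in each list of other p53 targets, autophagy partners, quinone oxidoreductase relatives and PERP relatives, MDM2 and CDKN1A, 5 partner genes, overlapping and nearest genes, the 2 nearest profiles per gene, and transcripts that hold at least 10% of a gene's TPM. Genes named outside that rule (APAF1, ULK1, GABARAPL2, JUP, PKP4, DSC3, the marker genes, those with pentanucleotide runs and the transcript TP53I11-202) were chosen after their values were seen. A few results are not reported here.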

Additional observations from a re-analysis of the deposited data

Results flagged for a closer look

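For each of the 8 genes the 10 values of either condition were searched for a sample far from the other 9, in 16 groups in all. Chance alone sets about 1 in 20 such groups apart where values vary continuously. That rate does not hold for PERP, which had no count in 9 vehicle and 5 nutlin samples. TP53I3 was at 57.3 CPM in vehicle replicate 10, with the next vehicle sample at 48.0 CPM. PERP was at 0.117 CPM in vehicle replicate 9, which rests on 2 counts while the other 9 vehicle samples had none. PERP was at 0.205 CPM in nutlin replicate 4, which rests on 3 counts, with the next nutlin sample at 0.0661 CPM. The value of TP53I3 in vehicle replicate 10 remained below the lowest nutlin value.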

How the results depend on the processing

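TP53I3, TP53I11, TP53INP1 and TP53TG1 kept their direction and remained SDE under all 10 alternatives, with LFCs from 1.92 to 2.15, 0.64 to 0.90, 4.01 to 4.11 and 2.88 to 2.99. TP53INP2 kept its direction (0.13 to 0.22) but was not SDE with an offset for effective length (LFC 0.14, edgeR QL adjusted p 0.0733), at 1% FDR, or in the 16 samples with shared numbers. TP53AIP1 was SDE only with the effective length offset (LFC 0.98, edgeR QL adjusted p 0.0442; adjusted p 0.0789 to 0.273 elsewhere), and PERP in none. The LFC of TP53I13 turned from -0.02 to 0.0316 with DESeq2 size factors and with DESeq2, 0.0608 with filterByExpr, 0.00543 with no filter, 0.15 with the effective length offset, 0.11 with the replicate block, 0.10 in the same 16 samples without it and 0.0027 without nutlin replicates 4 and 6, never SDE. filterByExpr left out TP53AIP1 and PERP, and 2 of the PERP relatives and desmosome genes rose in place of 5, with 9 of 14 tested.

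Numbers in the labels are shared by 8 vehicle and 8 nutlin samples, but nothing says that equal numbers were treated together. The deviations of samples with the same number correlated by -0.05 to 0.08, which cannot show whether they were treated together. With the number as a replicate block, 4 of the 8 genes rose, TP53INP2 not being SDE (LFC 0.13, edgeR QL adjusted p 0.131, against 0.0922 in the same 16 samples without the block). With all samples 15684 transcripts rose, against 12279 in the 16 samples without the block and 9200 with it. Of the 8 genes' transcripts, 12, 13 and 10 rose. With the block the calls of TP53INP2-202, TP53I11-202 and TP53AIP1-203 were lost and that of TP53I11-218 was gained; without it, in the same samples, TP53AIP1-203 was lost and TP53I11-218 gained already. TP53AIP1-203 was also lost with voom, filterByExpr and 1% FDR. With the block 3 of the PERP relatives and desmosome genes rose. The difference between TP53INP1 and TP53INP2 was 3.28 with exact sign flips over the 8 pairs (p = 0.00781, the smallest they can give), and 3.57 with a pseudocount of 0.5, 3.79 in CPM and 3.34 without replicates 4 and 6. The alternatives without replicates 4 and 6 and with 16 samples but no block were added after the data were seen. The cause of the changed calls was not tested. Depth limits TP53AIP1 and PERP, whose counts per sample were below 10, and the division of reads among similar transcripts is estimated.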
